A study of Mus musculus with 8 samples.

Results

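The GIMAP genes encode GTPases of the immunity-associated protein family, which lie side by side on mouse chromosome 6. All 8 members on the array (Gimap1, Gimap3, Gimap4, Gimap5, Gimap6, Gimap7, Gimap8 and Gimap9) were described across haematopoietic progenitors of wild-type and ACKR1-deficient mice. A probe belonged to the family where its RefSeq transcript was that of one of these genes. This gave 10 probes among 55681 on the array, 3 of them for Gimap4, and all 10 were kept among the 39098 probes that passed the filter on dim signals (detection over background on both arrays of some group). Gimap3 and Gimap7 passed it through wild-type LSK alone, so for them the filter itself favours lower values in the other groups. Each gene was represented by its probe with the highest mean, so the family made up 8 of the 28088 features tested. The family was chosen because Gimap8 was far lower in wild-type GMP than in wild-type LSK, so that difference is given as a description with no test.

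GIMAP proteins bind guanine nucleotides, and several are anchored in intracellular membranes. In mice and rats they are best known from lymphocytes, where loss of Gimap5 or Gimap1 causes lymphopenia and where several members have been tied to cell survival, cell death and autophagy. Loss of Gimap5 in mice has also been tied to a failure to maintain haematopoietic stem cells. ACKR1 is an atypical chemokine receptor that binds chemokines without signalling through G proteins.

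RNA came from sorted bone marrow cells of female mice aged 12 weeks, on 1-colour Agilent arrays, with 2 arrays in each of 4 groups. The deficient line carried its allele on a C57Bl/6J background after repeated backcrossing, was bred from heterozygotes, and was compared with wild-type littermates. LSK cells (negative for lineage markers and positive for Sca1 and cKit) hold stem cells and multipotent progenitors, and GMP cells (negative for lineage markers and Sca1, positive for cKit, CD34 and Fc gamma receptors) hold granulocyte-macrophage progenitors. The labels do not say whether replicates came from separate mice or pools, so a p-value here covers the spread among these arrays alone, which may be technical, and the small number of arrays limits the precision. A level below is the log2 background-corrected signal of a probe minus the log2 of the 75th percentile of its array, so that 0 is the brightness of the 75th percentile. Levels are compared between arrays for 1 probe and never between probes. In such bulk RNA, fewer cells expressing a gene and less RNA per cell cannot be told apart.

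Some arrays stood apart. Deficient LSK replicate 2 was weak, with 34.3% of spots well above background against 62.5% to 73.1% on the other 7 arrays, and its lowest level well above background was −1.44 against −4.81 or lower elsewhere. It correlated with its own replicate at r = 0.780 over the features, and the deficient GMP arrays correlated at 0.898, against 0.948 in wild-type LSK and 0.976 in wild-type GMP. The lowest value of an array was shared by 7674 to 9884 probes on the wild-type arrays and deficient GMP replicate 2. On deficient LSK replicates 1 and 2 and deficient GMP replicate 1, only 5, 1 and 2 probes had it. The part of these unlike floors in the genotype differences of dim probes was not tested. All arrays lay on 1 slide, the deficient ones in its column 1 and the wild-type ones in its column 2, so genotype and slide column cannot be told apart. The LSK arrays lay in its rows 1 and 3 and the GMP arrays in its rows 2 and 4. Population and slide row therefore cannot be told apart either. Ackr1 itself had 1 probe, and its level did not separate the genotypes, with a difference, deficient minus wild type, of 0.08 in LSK and 0.36 in GMP (limma, adjusted p = 0.955 and adjusted p = 1.00). Whether that probe lies in the deleted sequence is not known here, so genotypes are named as labelled. Mpo and Elane, granule enzymes of granulocyte-macrophage progenitors, were higher on every GMP array than on every LSK array (lowest GMP levels 9.44 and 6.19, highest LSK levels 7.32 and 3.99). Ly6a, which encodes Sca1, was not lower in GMP, although that gate was Sca1-negative, with 2.84 and 3.12 in wild-type GMP against 1.84 and 3.80 in wild-type LSK. Fcgr3, which encodes CD16, was at −0.75 in deficient GMP replicate 1 and between 2.18 and 3.42 on the other GMP arrays.

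The 8 genes follow each other on chromosome 6 in the order Gimap8, Gimap9, Gimap4, Gimap6, Gimap7, Gimap1, Gimap5 and Gimap3 in the RefSeq annotation of GRCm38.p6. Gimap6 and Gimap3 are on the minus strand and the others on the plus strand. Promoters of 4 genes are shown because Gimap8 gave the widest range of levels, Gimap6 and Gimap5 are the members whose windows hold the letters of an ETS motif, and Gimap9 had a narrow range. Each is the 250 bases before the annotated start, read 5′ to 3′ on the strand of the gene, from RefSeq (GRCm38.p6), at chr6:48646984-48647233 on the plus strand for Gimap8 (the first of 2 annotated starts), chr6:48708245-48708494 on the minus strand for Gimap6, chr6:48745947-48746196 on the plus strand for Gimap5, and chr6:48675885-48676134 on the plus strand for Gimap9. Capitals mark the ETS letters.
Gimap8 promoter: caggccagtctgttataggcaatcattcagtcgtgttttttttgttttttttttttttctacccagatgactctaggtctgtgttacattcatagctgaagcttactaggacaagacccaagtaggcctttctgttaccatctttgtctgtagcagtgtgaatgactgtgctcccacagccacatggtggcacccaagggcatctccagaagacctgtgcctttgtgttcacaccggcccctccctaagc
Gimap6 promoter: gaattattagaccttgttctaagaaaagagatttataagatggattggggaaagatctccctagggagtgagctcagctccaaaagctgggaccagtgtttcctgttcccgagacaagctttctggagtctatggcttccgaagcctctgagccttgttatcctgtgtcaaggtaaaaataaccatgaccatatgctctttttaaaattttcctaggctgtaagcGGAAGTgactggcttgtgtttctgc
Gimap5 promoter: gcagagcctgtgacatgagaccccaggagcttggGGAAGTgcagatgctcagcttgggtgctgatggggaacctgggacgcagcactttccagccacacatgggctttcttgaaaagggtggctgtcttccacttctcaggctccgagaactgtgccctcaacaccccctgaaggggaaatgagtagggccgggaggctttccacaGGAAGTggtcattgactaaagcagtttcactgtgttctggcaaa
Gimap9 promoter: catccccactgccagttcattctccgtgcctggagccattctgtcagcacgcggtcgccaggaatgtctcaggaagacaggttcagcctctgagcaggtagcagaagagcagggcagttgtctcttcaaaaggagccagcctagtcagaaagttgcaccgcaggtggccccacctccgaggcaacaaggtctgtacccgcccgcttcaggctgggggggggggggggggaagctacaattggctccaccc

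The letters of 3 motifs of haematopoietic factors were searched on both strands in the 9 windows of the 8 genes, and no matches overlapped. GGAAGT, the core bound by ETS factors, was in 2 of 9 windows, with its first base 25 bases before the start in Gimap6 and 216 and 44 bases before it in Gimap5. Among all 32851 promoter windows of this length, 19.7% held it. TGTGGT, the core bound by RUNX factors, was in 3 of 9 windows, those of Gimap4, Gimap7 and Gimap1, and in 14.1% of all windows. AGATAA, bound by GATA factors, was in 0 of 9 windows and in 9.99% of all. These are counts of letters in a fixed window and say nothing about binding.

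In wild-type cells every gene was higher in LSK than in GMP, except Gimap4 at its brightest probe. Gimap8, an unusually long member with several GTPase domains, had levels of 2.40 and 2.12 in wild-type LSK and of −7.10 and −7.61 in wild-type GMP. Both GMP values are the lowest value of the array, shared there by 9642 and 8559 probes, so they carry no order. The difference was −9.61 on the log2 scale, and because the probe was not well above background in wild-type GMP its fold is a bound: Gimap8 was at least 286-fold higher in wild-type LSK. For such a bound, each array of the dim group counts at the lowest level of any probe that was well above background on it. Where the probe's own level was higher, that level counts. A probe can lie above this lowest level and still not be well above background, as Gimap3 did in deficient GMP. Each such bound therefore holds under this rule alone.

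Gimap6, whose protein binds an autophagy protein of the GABARAP family, came next, with 5.31 and 5.76 in wild-type LSK against −1.13 and −1.24 in wild-type GMP, or −6.72 (106-fold lower). It was well above background on all 8 arrays, so this fold is a measured one. Gimap5, the lysosomal member needed for lymphocyte survival, stood at 2.25 and 2.41 in LSK and at −4.14 and −3.35 in GMP, or −6.07 (67.4-fold lower). Gimap3, its close relative, stood at −1.87 and −1.24 against −6.77 and −6.78, a difference of −5.22 that amounts to at least 20.3-fold. Gimap1, required for the survival of mature mouse lymphocytes, stood at 2.59 and 4.04 against −1.35 and −1.37, or −4.67 (25.4-fold lower). Its wild-type GMP arrays differed by far less than its LSK arrays. Gimap7, whose human counterpart becomes an active GTPase as a dimer, stood at −4.07 and −1.27 in LSK and at the lowest value of the array, −7.10 and −7.61, in GMP, at least 9.39-fold lower. Gimap9 had the smallest difference of this direction, −1.92 (3.77-fold lower), from −0.07 and 0.86 in LSK to −1.80 and −1.24 in GMP.

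The median difference over the 8 members was −4.95, against 0.015 over all features, and 1.35% of features were called lower in this comparison. Since the members were chosen by it, nothing is read from either. Gimap8 was the member the choice was made on.

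**Figure D1:**
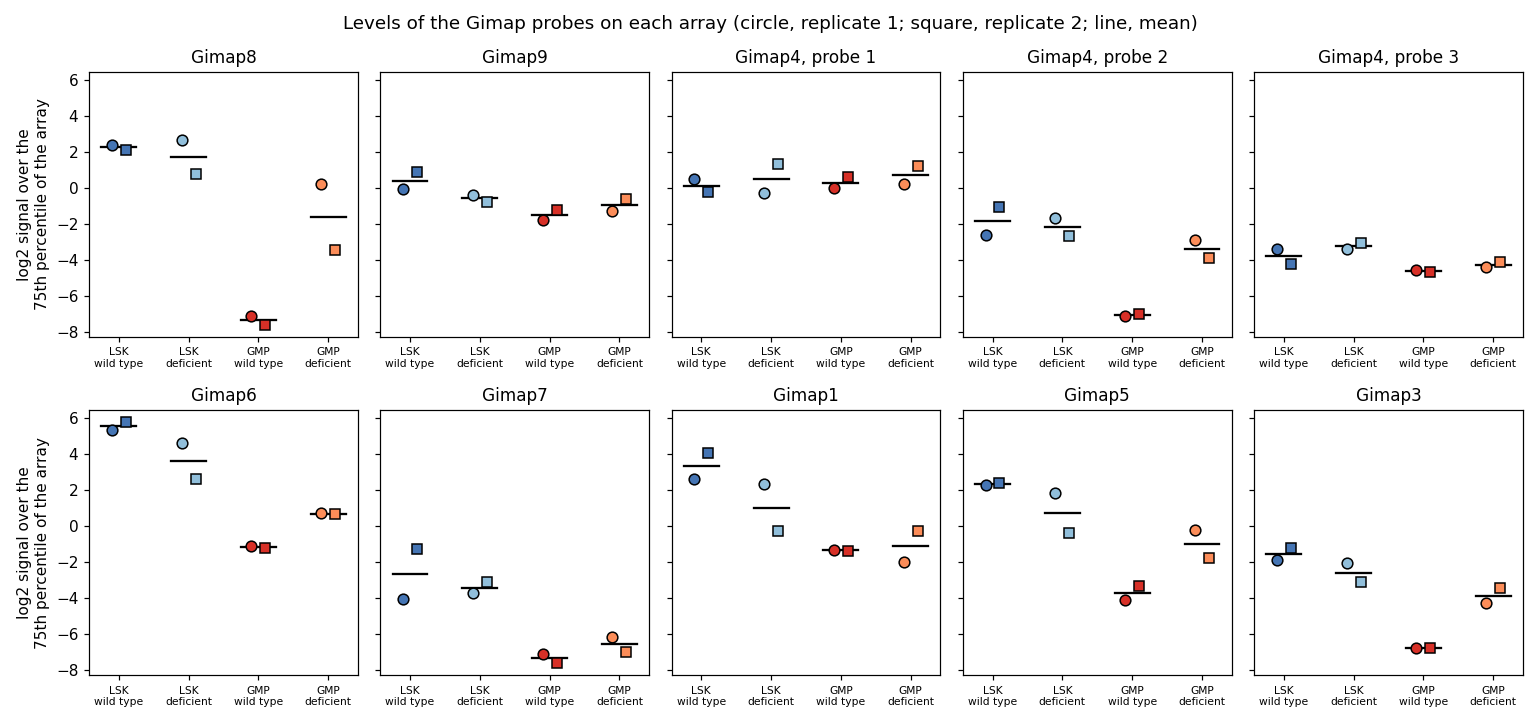
Levels of the 10 probes of the 8 Gimap genes on each of the 8 arrays. The y axis is the log2 signal minus the log2 of the 75th percentile of the array. Circles are replicate 1, squares replicate 2 and lines the mean of both. Gimap8 lies between 0.75 and 2.67 on the LSK arrays and at −7.10 and −7.61 on the wild-type GMP arrays, and the 3 probes of Gimap4 do not share a pattern.

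Gimap4, whose product has been tied to the death of T cells, was read differently by its 3 probes. At the probe with the highest mean, which stands for the gene in the tests, levels lay between −0.29 and 1.31 on all 8 arrays and the groups overlapped. The wild-type difference there was 0.15. The second probe ran from −2.62 and −1.07 in wild-type LSK to −7.10 and −6.99 in wild-type GMP, a difference of −5.20 and at least 16.7-fold. The third lay between −4.68 and −3.09 on all arrays, with a wild-type difference of −0.81. All 3 name the same transcript, so the data give no single pattern for Gimap4, and its values below are given by probe where the probes differ.

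The group means fell in 1 order for 7 of the 8 members: wild-type LSK, deficient LSK, deficient GMP, wild-type GMP. For Gimap7, not well above background on any GMP array, the last 2 places are not a measured order. For Gimap4 at its brightest probe the order was deficient GMP, deficient LSK, wild-type GMP, wild-type LSK, and no neighbouring groups in it were separate. Gimap6 and Gimap3 were the 2 members in which the arrays of every pair of neighbouring groups were separate. For Gimap8 and Gimap7 the arrays of wild-type and deficient LSK overlapped, and for Gimap1 and Gimap9 those of the GMP genotypes overlapped, as did deficient LSK and deficient GMP. For Gimap5 deficient LSK and deficient GMP overlapped. The ends of this order are the wild-type groups the choice used. The share of all features with this order or with separate neighbours was not computed, so nothing is read from these counts.

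The deficient arrays took no part in the choice, so GMP was compared with LSK in the deficient mice as a test. Of the 8 members, 7 had lower means in deficient GMP than in deficient LSK, although Gimap3 turned to 0.56 under quantile normalization and Gimap9 to 0.22 under median scaling. Of them 0 were called (limma, Benjamini-Hochberg adjusted p under 0.05), as for the array as a whole, where 0% of features were called. At an unadjusted p under 0.05, 3 of 8 members passed (Gimap6, Gimap7 and Gimap8) and 16.7% of all features. The median difference of the members was −1.94, against −0.067 over all features, of which 52.0% were below 0.

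Gimap8 had levels of 2.67 and 0.75 in deficient LSK and of 0.20 and −3.47 in deficient GMP. The groups did not overlap, but the replicates of deficient GMP lay further apart than the groups' nearest arrays, and the difference was −3.34 ± 1.12 (SE; limma, adjusted p = 0.209). Leaving out deficient GMP replicate 2 made it −1.51, and leaving out deficient GMP replicate 1 made it −5.18. Gimap6 had 4.62 and 2.59 in deficient LSK against 0.71 and 0.66 in deficient GMP, a difference of −2.92 ± 0.76 (SE; limma, adjusted p = 0.160). Leaving out 1 deficient array at a time gave differences between −3.94 and −1.91 for it. Gimap7 was not well above background on either deficient GMP array (−6.17 and −6.97, the latter the lowest value of its array) and had −3.72 and −3.14 in deficient LSK, where replicate 2 was not well above background either. Its difference was −3.14 ± 0.91 (SE; limma, adjusted p = 0.173).

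Gimap3 was also separate between the deficient groups, with −2.08 and −3.09 in LSK and −4.27 and −3.47 in GMP, but 1 array of each group was not well above background and the difference of −1.28 did not pass (limma, adjusted p = 0.369). It ran from −1.79 to −0.78 as 1 deficient array was left out. Arrays of these groups did not overlap, GMP being lower, for 4 of 8 members (Gimap3, Gimap6, Gimap7 and Gimap8) and for 18.5% of all features. Gimap1 (2.33 and −0.28 against −2.01 and −0.26) and Gimap5 (1.82 and −0.37 against −0.23 and −1.78) overlapped at the weak LSK array, and their differences were −2.16 and −1.73 (limma, adjusted p = 0.308 and adjusted p = 0.348). Without that array they were −3.46 and −2.83. Gimap9 differed by −0.39, and Gimap4 by 0.20 at its brightest probe and by −1.19 and −1.02 at the others.

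**Figure D2:**
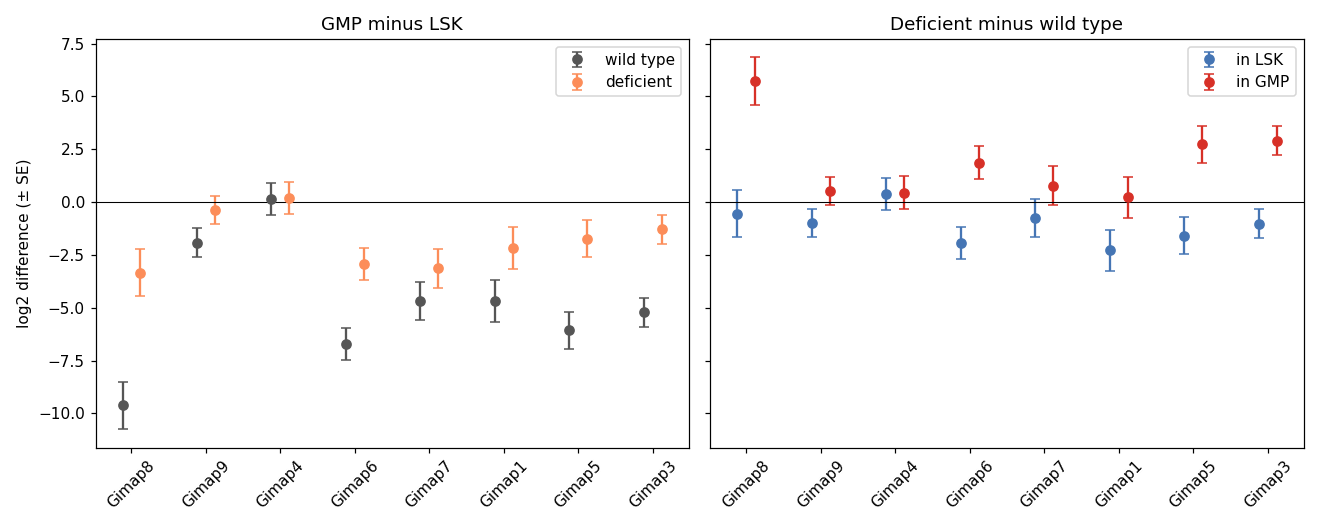
Differences of the 8 members on the log2 scale with their standard errors, in chromosome order. The left panel shows GMP minus LSK in wild type, which chose the family, and in deficient cells. The right panel shows deficient minus wild type in LSK and in GMP, where Gimap8 stands at −0.55 and 5.72.

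In LSK, where the wild-type arrays are shared with the comparison that chose the family, 7 of 8 members had lower means in deficient cells, Gimap3 and Gimap7 turning to 0.29 each under another background correction and Gimap4, the exception, to −0.18 under median scaling. Of them 0 were called (limma, adjusted p between 0.550 and 0.820), while 0.239% of all features were called. Unadjusted, 2 members passed, Gimap1 and Gimap6, and 8.83% of all features. The median of the members was −1.01, against 0.11 over all features, of which 46.6% were below 0.

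Gimap6 stood at 5.31 and 5.76 in wild-type LSK and at 4.62 and 2.59 in deficient LSK, a difference of −1.93 ± 0.76 (SE; limma, adjusted p = 0.550). Gimap1 stood at 2.59 and 4.04 against 2.33 and −0.28, or −2.29 ± 0.99 (SE; limma, adjusted p = 0.550). For both, the deficient arrays lay below the wild-type arrays, and the weak array lay far below the other deficient one. Without the weak array the differences were −0.92 for Gimap6 and −0.99 for Gimap1. With the weak array as the lone deficient LSK array, assumed to vary like the other groups, Gimap6 was called at −2.95 (limma, adjusted p = 0.041) among 2813 called features. Gimap5 differed by −1.60, Gimap3 by −1.03 and Gimap9 by −0.99, all with separate arrays, and Gimap7 by −0.76 and Gimap8 by −0.55 with overlapping ones. Without the weak array, Gimap5 was at −0.51 and Gimap3 at −0.53. Separate arrays with deficient LSK lower were found for 5 of 8 members and 21.1% of all features. The count includes Gimap3, which passed the filter through wild-type LSK alone. Gimap8 turned to 0.41 without the weak array.

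In GMP, which shares the wild-type arrays with the choosing comparison too, all 8 members had higher means in deficient cells, with Gimap1 turning to −0.07 under median scaling. Of them 0 were called (limma), while 0.146% of all features were called. Unadjusted, 4 of 8 passed (Gimap8, Gimap3, Gimap5 and Gimap6), and 4.82% of all features. The median was 1.33, against 0.16 over all features, of which 40.8% were below 0. A member chosen for its low wild-type GMP level starts low in this comparison.

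Gimap8 was at the lowest value of the array in wild-type GMP (−7.10 and −7.61) and at 0.20 and −3.47 in deficient GMP, where it was well above background on both arrays. The difference was 5.72 ± 1.12 (SE; limma, adjusted p = 0.140), or at least 19.3-fold higher. It rested most on deficient GMP replicate 1, the array with low Fcgr3 and few probes at its lowest value. Without that array the difference was 3.89, and without replicate 2 it was 7.56. With array weights Gimap8 was called (limma, adjusted p = 0.045). The wild-type GMP values of Gimap8 took part in the choice of the family, so no support is drawn from these tests. Gimap3 stood at −6.77 and −6.78 in wild-type GMP and at −4.27 and −3.47 in deficient GMP, a log2 difference of 2.91 ± 0.68 (SE; limma, adjusted p = 0.298). The deficient replicates were closer to each other than to the wild type, although 1 of them, like both wild-type arrays, was not well above background, so no fold is given.

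Gimap5 was well above background on all 4 GMP arrays, with −4.14 and −3.35 in wild type and −0.23 and −1.78 in deficient cells. It was 6.68-fold higher in deficient GMP (2.74 ± 0.87, SE; limma, adjusted p = 0.735), with 1.97 without deficient replicate 1 and 3.51 without deficient replicate 2. Gimap6, with −1.13 and −1.24 against 0.71 and 0.66, had the closest replicates and was 3.66-fold higher (1.87 ± 0.76, SE; limma, adjusted p = 0.956). Leaving out either deficient GMP array gave 1.84 or 1.90 for it. Gimap7, at the lowest value on 3 of the 4 arrays, differed by 0.78, Gimap9 by 0.54 and Gimap1 by 0.22. Gimap4 differed by 0.44 at its brightest probe and by 3.66 at the second (at least 5.73-fold; limma, adjusted p = 0.232). Arrays were separate with deficient GMP higher for 5 of 8 members (Gimap3, Gimap5, Gimap6, Gimap7 and Gimap8), of which the Gimap7 values at the floor have no order, and for 19.8% of all features.

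Averaged over both populations, 5 members had higher and 3 lower means in deficient cells, of which Gimap3, Gimap4, Gimap6 and Gimap7 changed sign under another scaling. The median of the members was 0.21, against 0.16 over all features, of which 41.6% were below 0. None was called (limma, 0 of 8, with 0.602% of all features called), and 1 passed unadjusted, Gimap8 at 2.59 (limma, adjusted p = 0.335), against 12.2% of all features.

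Gimap6 moved most closely with the rest of the family across the 8 arrays, with a Pearson r of 0.984 with the mean of the other members, followed by Gimap5 and Gimap3 at 0.968 each. Gimap8 had 0.903, Gimap7 0.889, Gimap9 0.874 and Gimap1 0.841, while Gimap4 at its brightest probe had −0.26. These correlations describe 8 arrays that differ in signal strength and share population and genotype within groups. The wild-type LSK and GMP arrays, whose difference chose the family, are among them. No support is therefore drawn from these correlations or from those that follow. Among the 15850 named features measured on all arrays, members set aside, those most like the family mean were Islr (r = 0.996), Hnf4a (0.995), Nsg2 (0.992), Wfdc18 (0.990) and Lypd6b (0.988). Those most like Gimap8 alone were Slco2b1 and Tnfrsf13c (both 0.995), Ctla2a, Igf2r and Trpc6 (each 0.993). Nsg2, Wfdc18 and Slco2b1 stood, like Gimap8, at the lowest value of both wild-type GMP arrays. Islr and Nsg2 were well above background on 3 of the 8 arrays, whereas Hnf4a, Ctla2a and Igf2r were so on all 8. The part of shared floor values in these correlations was not tested. Ctla2a, which encodes an inhibitor of cysteine proteases, had LSK means of 7.11 for wild type and 6.15 for deficient mice, and GMP means of 0.46 and 4.44. Hnf4a, a nuclear receptor, ran from 3.35 and 1.68 in the LSK groups to −2.94 in wild-type and −0.73 in deficient GMP.

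**Figure D3:**
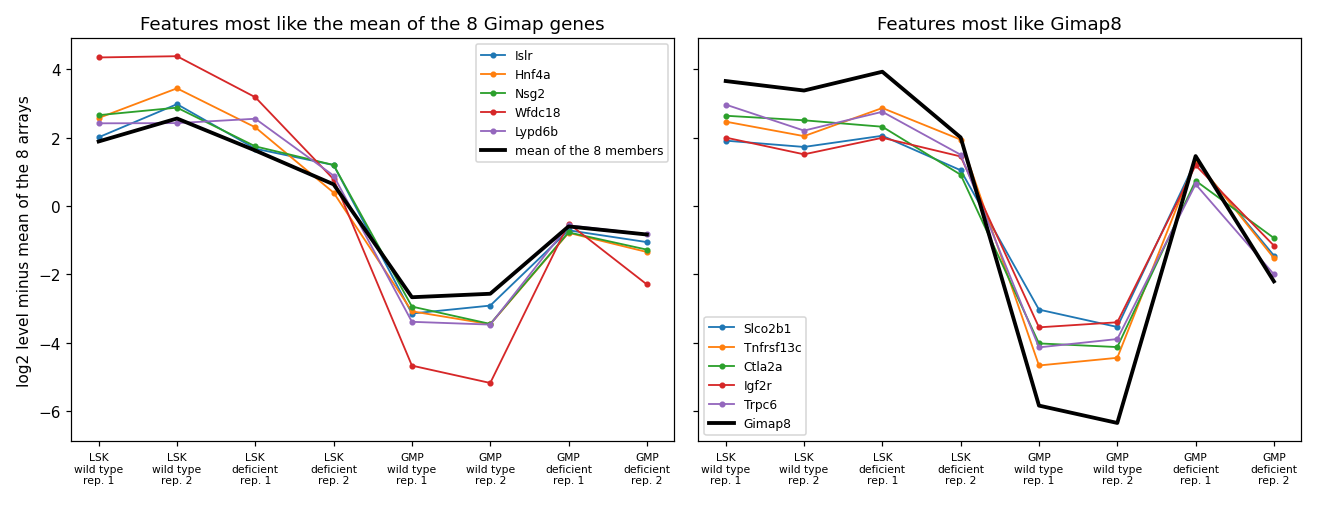
Profiles over the 8 arrays of the mean of the 8 members (left) and of Gimap8 (right) in black, with the 5 named features most correlated with each in colour. The y axis is the log2 level minus its mean over the 8 arrays. The correlations lie between 0.988 and 0.996.

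The same arrays were read for genes of other cells that the gates could hold, for the 7 sort markers and for genes near the family or tied to it. Over all features, the shares called were 0% between deficient populations, 0.239% in LSK and 0.146% in GMP, and the shares passing unadjusted were 16.7%, 8.83% and 4.82%. In the same order, 52.0%, 46.6% and 40.8% of all features were below 0. The sort markers had 0 called members between deficient populations, in LSK and in GMP (limma), and 4, 2 and 1 passed unadjusted. The lymphoid priming list (receptors and transcription factors of early lymphoid progenitors, 14 tested) had 0 called members between deficient populations, in LSK and in GMP (limma), and 7, 1 and 4 passed unadjusted. Its means were lower in deficient GMP than in deficient LSK for 12 of 14 members, with a median of −1.08 and Dntt, the terminal transferase, at −4.44 and Gata3 at −3.69 (limma, adjusted p = 0.140 for each). In deficient against wild-type GMP, 12 of 14 were above 0, with a median of 1.60 and Il7r, the receptor for interleukin 7, at 4.32 (limma, adjusted p = 0.088). Il7r stood at the lowest value of both wild-type GMP arrays, so its difference is not a measured size. In LSK the median of the list was −0.41. Its mean level was 0.74 and 0.77 on the wild-type LSK arrays and 0.47 and 0.88 on the deficient ones. On the GMP arrays it was −2.25 and −2.03 for wild type, then −1.07 and −0.29 for the deficient mice.

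Markers of stem cells (12 tested) had 0 called members too, with 4, 0 and 2 passing unadjusted, and medians of −1.25 between deficient populations, −0.19 in LSK and 1.10 in GMP, where 12 of 12 were above 0. Slamf1, a surface marker of stem cells, differed by 3.62 in GMP (limma, adjusted p = 0.117). It stood at the lowest value of both wild-type GMP arrays, so this is not a measured size. T and NK cell genes (16 of 20 tested) had medians of −0.65, 0.52 and 0.89 in these comparisons and 0 called, with 3, 4 and 3 passing unadjusted (limma). Their mean level lay between −1.59 and −1.54 in wild-type GMP and between −0.80 and −0.73 in deficient GMP, with 14 and 16 of 16 genes well above background. Cd3d, a defining T cell gene, lay between −4.83 and −4.04 on the wild-type arrays and between −2.87 and −2.05 on the deficient ones. Its differences were 2.29 in LSK and 1.63 in GMP (limma, adjusted p = 0.416 and adjusted p = 0.956). Not every gene of the list went this way. Deficient minus wild type, 12 genes were above and 4 below 0 in LSK, the latter including Lck and Lat at −1.32 each. In GMP 11 were above and 5 below 0, and Lck and Lat differed by 1.33 and 0.29. The probes of Cd3e and Cd4, named after their values were seen, lay between 1.71 and 4.35 and between 0.53 and 4.34 on the 8 arrays, with overlapping genotypes.

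B lineage genes (13 of 15 tested) had 1 member called higher in deficient LSK, Ms4a1, which encodes CD20, at 5.97 (limma, adjusted p = 0.030), and 2 in deficient GMP, Ms4a1 at 6.09 and Fcrla at 4.57 (limma, adjusted p = 0.036 and adjusted p = 0.043). Ms4a1 stood at the lowest value of wild-type LSK replicate 1 and wild-type GMP replicate 2, and Fcrla at that of both wild-type GMP arrays. These differences are therefore not measured sizes. The medians of the list were −0.28 between deficient populations, 1.01 in LSK and 2.20 in GMP, and 1, 3 and 7 genes passed unadjusted (limma). In LSK 11 genes were above and 2 below 0. In GMP 9 were above and 4 below, among the latter Cd22 at −1.08 and Cd79b at −0.91. The mean level of the list was between −3.30 and −3.15 in wild-type GMP and between −1.41 and −1.15 in deficient GMP. Endothelial genes (10 of 12 tested) had 0 called, with 3, 0 and 2 passing unadjusted (limma), and medians of −0.87 between deficient populations, −0.80 in LSK and 0.34 in GMP. Secondary granule genes of neutrophils (11 tested) were called higher in deficient cells for 8 members in LSK and 7 in GMP, with medians of 8.71 and 8.82, and erythroid genes (12 tested) for 5 and 6, with medians of 5.97 and 7.67. Between the deficient populations these lists had medians of −0.15 and 0.018 and 0 called, with 0 and 1 passing unadjusted (limma). Deficient minus wild type, the Gimap members had −1.01 in LSK and 1.33 in GMP. The part of these cell markers in the Gimap values was not tested.

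**Figure D4:**
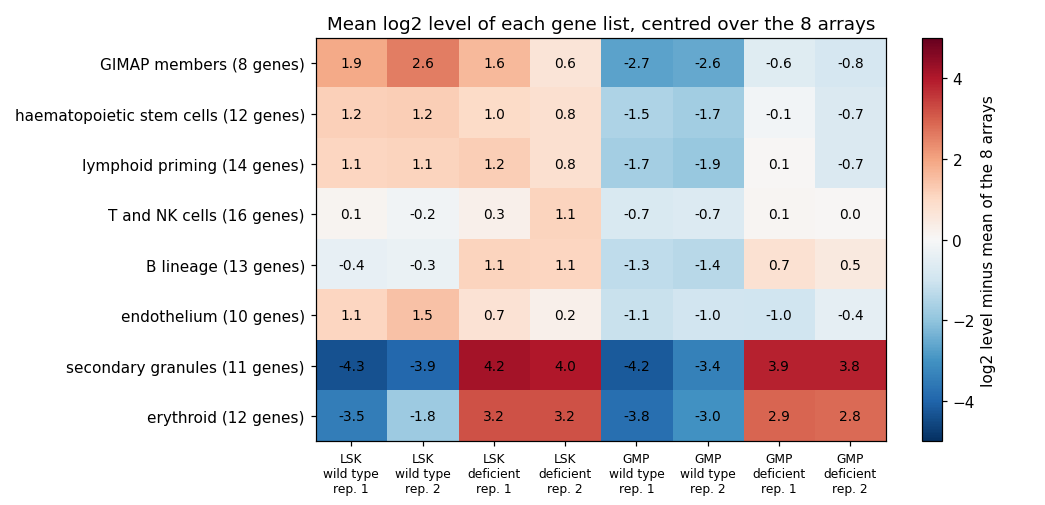
Mean log2 level of the 8 members and of 7 lists of cell type markers on each array, minus the mean over the 8 arrays. Red is above and blue below that mean. The members and the stem cell, lymphoid priming, T and NK cell and B lineage lists are lowest on the wild-type GMP arrays, and the granule and erythroid lists are high on all 4 deficient arrays.

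Genes whose products bind GIMAP proteins or share their processes (15 tested, among them Bcl2 relatives and GABARAP proteins) had 0 called members (limma), with 3, 1 and 1 passing unadjusted, and medians of 0.49 between deficient populations, −0.86 in LSK and −0.12 in GMP. Bax, a promoter of cell death, differed by 1.72 and Gabarap by 1.69 between deficient populations (limma, adjusted p = 0.239 and adjusted p = 0.249), and Map1lc3b, an autophagy gene, by −2.15 in LSK (limma, adjusted p = 0.550). Map1lc3b stood at 3.26 and 0.56 on the deficient LSK arrays, the latter on the weak array. The other immunity GTPases (13 of 15 tested, of the interferon-induced families) had 0 called, with 3, 2 and 1 passing unadjusted (limma), and medians of −0.36, −0.42 and 0.15. Between deficient populations 9 of the 13 were below 0, and the 3 that passed unadjusted were Gbp3 at 3.12, Iigp1 at −2.22 and Gbp8 at −3.85 (limma, adjusted p = 0.167, adjusted p = 0.184 and adjusted p = 0.186). Gbp8 stood at the lowest value of deficient GMP replicate 2, so its difference is not a measured size. Of the 20 nearest tested genes on chromosome 6, 10 on each side of the family, 0 were called in any comparison tested (limma), and 2, 2 and 1 passed unadjusted. Their median was 0.15 between deficient populations, with 10 above and 10 below 0, −0.47 in LSK and 0.45 in GMP. Tmem176b and Tmem176a were the neighbours with the smallest p in LSK, at −2.37 and −2.73 (limma, adjusted p = 0.506 and adjusted p = 0.550). On the deficient LSK arrays they stood at 4.66 and 2.62 and at −0.70 and −2.01, each lower on the weak array.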

How the data were processed

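RNA of sorted LSK and GMP cells, labelled with Cy3, was measured on 8 Agilent arrays of 1 colour, 2 for each population and genotype. Per the file headers, spots were quantified by Agilent Feature Extraction 10.7.3.1 (a tool named in the submitters' processing notes as well), and the processed signal of a spot is a background-corrected intensity on a linear scale. The median foreground and background intensities, per the file headers, are uncorrected. The authors also deposited a series value table in log2 units. It tracked the scanner levels used here after these were centred by probe (r at least 0.9997 on each array). The median of each of its columns was 0.12 and −0.27 (LSK, wild type), 0.04 and 1.25 (LSK, deficient), −0.13 and −0.14 (GMP, wild type), 0.32 and −0.11 (GMP, deficient). No column of another sample was present.

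From the processed signals, log2 values minus the log2 of the array's 75th percentile were computed. Control and outlier spots (104 to 139 per array) were left out, and 0 spots were saturated. Replicate spots were averaged, and a probe was kept if any group had it well above background on its 2 arrays. Probe accessions were matched to a RefSeq gene table of GRCm38.p6, which named 26582 of 55681 probes. The probe with the highest mean stood for a gene. Differences were fitted in R 4.3.3 by limma 3.58.1 (functions lmFit, contrasts.fit, eBayes) with a mean for each of 4 groups (all 8 arrays; residual degrees of freedom 4, prior 5.75), and p-values were Benjamini-Hochberg adjusted over 28088 features, with calls under 0.05. Each sample's depth is its share of spots well above background. Files were read with the R package of version 1.17.8 named data.table, figures drawn with matplotlib 3.10.9 in Python 3.11.15, and the fit was tested on simulated data. The alternatives were normexp background correction (offset 50, on median signals because mean signals are not among the columns used), quantile normalization, no filter on dim probes, array weights, a replicate block, only the groups compared, all probes singly, the value table, and leaving out each array. Scaling to the median and a crossed block were added after seeing the data.

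All 8 members were named, with the 5 features most correlated with their mean and with Gimap8. List examples were mostly among those with the smallest p. Lck, Lat, Cd22 and Cd79b were named as genes below 0, and Cd3e and Cd4 after their values were seen. The family, the lists and the rules were chosen with earlier results of these data known. Wild-type and deficient arrays share replicate numbers, but the deviations of same-numbered arrays did not show a pairing. Genotype differences compared between populations were not tested, since they hold the comparison that chose the family.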

Additional observations from a re-analysis of the deposited data

Results flagged for a closer look

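For 3 of the 8 members every deficient LSK array lay below both wild-type LSK arrays, while every deficient GMP array lay above both wild-type GMP arrays. Over all features, 2.20% had this pattern. The genotype difference in GMP minus that in LSK was 3.94 on the log2 scale for Gimap3, 4.34 for Gimap5 and 3.80 for Gimap6. Each of these values contains the wild-type GMP minus LSK difference that chose the family, so the difference was not tested and nothing is read from the number of members. For Gimap3, both wild-type GMP arrays and 1 array of each deficient group were not well above background, so its value is not a measured size.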

How the results depend on the processing

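With 2 arrays per group and 1 weak array, single arrays moved many values, and the cause of the changes below was not tested. No member was called (limma) between deficient populations or in the averaged comparison under any alternative run. In GMP, 1 member, Gimap8, was called with array weights (limma, adjusted p = 0.045) and with the replicate block (limma, adjusted p = 0.036). It was also called without deficient replicate 2, which left 1 array in that group. Under the other alternatives its adjusted p went up to 0.963. Its wild-type GMP values took part in the choice of the family, so no support is drawn from these calls. In LSK 1 member, Gimap6, was called without deficient replicate 1. Leaving out 1 array therefore gave 0 to 1 called members in each population. Replicate numbers are shared between groups but nothing says that they pair arrays. Deviations of same-numbered arrays correlated at −0.34 between genotypes in LSK, 0.26 in GMP and −0.05 between deficient populations. The block gave 81 called features in LSK against 67 and 69 in GMP against 41, and the crossed block, chosen after seeing the data, gave 193 in LSK with 0 members. Over the alternatives the features called ran from 0 to 4268 between deficient populations (0 in the reported fit), 0 to 2813 in LSK, 0 to 75 in GMP and 40 to 206 in the average (169). The median wild-type difference was −2.94 with normexp, −4.46 with quantile normalization, −4.63 with median scaling, and −5.81 to −4.43 when 1 array was left out. With normexp, Gimap3 and Gimap7 turned to 0.29 and 0.29 in LSK. With quantile normalization, Gimap3 and Gimap4 turned to 0.56 and −0.13 between deficient populations, and Gimap3, Gimap6 and Gimap7 to −0.31, 0.11 and −1.22 in the average. With the value table, Gimap7 turned to −0.018 in the average. Relative to the reported fit, the median of all features moved by −0.57 in LSK, −0.29 in GMP, −0.43 in the average and 0.61 between deficient populations with median scaling, by −0.33, −0.14, −0.24 and 0.25 with quantile normalization, and by 0.30, 0.12, 0.16 and −0.23 with normexp. Median scaling turned Gimap9 to 0.22 between deficient populations, Gimap4 to −0.18 in LSK, Gimap1 to −0.069 in GMP, and Gimap4 and Gimap7 to −0.014 and −0.42 in the average. Without the weak LSK array and deficient GMP replicate 1, Gimap4 and Gimap8 turned to −0.41 and 0.41 in LSK, and Gimap1, Gimap6, Gimap7 and Gimap9 to 0.056, 0.46, −0.34 and 0.025 in the average. The second probe of Gimap4 gave −0.35 in LSK, −1.19 between deficient populations and −5.20 in wild type. With 1 array left out, Gimap4 ran from −0.60 to 1.01 between deficient populations, −0.41 to 1.19 in LSK, −0.038 to 0.93 in GMP and −0.22 to 0.52 in wild type. So did Gimap7 from −2.16 to 0.64 and Gimap8 from −1.51 to 0.41 in LSK, Gimap1 from −0.66 to 1.10 in GMP, and Gimap6 from −0.54 to 0.48, Gimap7 from −0.69 to 0.71 and Gimap9 from −0.46 to 0.0046 in the average.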
